A study of Mus musculus with 12 samples.

Results

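The levels of 8 genes were followed, out of the 37675 genes listed for each library, in whole testes of C57BL/6NHsd mice during the first wave of spermatogenesis. They were chosen by name, as genes of retinoic acid (RA) signalling and its germ cell target Stra8, with no threshold on a measured value. RNA of 10 mice was sequenced, 2 at each of postnatal day (PND) 7, 14, 17, 21 and 28. All mice shared the strain and the tissue, with no treatment or altered allele, so that the animals of the groups differed by label in age. Only the PND 7 mice were sequenced as 2 barcodes each, which the paper ascribes to technical reasons, so library handling goes with that age. The RNA came from the whole organ and was depleted of ribosomal RNA, so each value mixes germ cells with Sertoli, Leydig, peritubular and other somatic cells.

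RA is made from vitamin A in 2 oxidation steps, from retinol to retinal and from retinal to RA. Cells take up retinol through the receptor encoded by Stra6, the retinaldehyde dehydrogenases ALDH1A1 and ALDH1A2 carry out the last oxidation, CYP26 enzymes such as CYP26B1 degrade RA, and CRABP1 binds it in the cytosol. RA then acts through nuclear receptors, RARA and RARG among them, which pair with retinoid X receptors on response elements in DNA. In the testis RA drives the differentiation of spermatogonia and the entry into meiosis, for which the induction of Stra8 is required.

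All 8 members were protein coding genes that passed the filter on low counts, and 6 of them differed between PND 7 and PND 28. Stra8, Stra6, Cyp26b1, Rara and Crabp1 fell and Aldh1a2 rose, while Aldh1a1 and Rarg did not pass the test in that comparison. The changes did not come at the same age. Rara fell and Aldh1a2 rose between PND 7 and PND 14, and Stra8 fell between PND 17 and PND 21. A change is called here when edgeR's quasi-likelihood test, fitted on all 10 mice, gave a Benjamini-Hochberg adjusted p under 0.05 over the 16860 genes tested and a fold change of at least 2. Levels are given as CPM, the count scaled to a TMM adjusted library size, when 1 gene is compared between ages, and as deposited RPKM, which is per exon length, when genes are compared with each other.

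Library totals ran from 3994026 to 13559548 counts on genes, so that 3 counts stood for 0.209 to 0.726 CPM. The study also split the filtered reads of each sample into exon, intron and intergenic reads. Intron reads had a larger share in the PND 7 mice, PND 14 mouse 1 and PND 21 mouse 1 than in the others. This difference between libraries thus goes in part with age, and its part in the levels of the genes was not tested. Germ cell markers were compared with the labelled ages. The 8 spermatocyte markers summed to 466.3 and 398.0 CPM at PND 7 and to between 1782 and 2725 CPM later, and the 8 spermatid markers summed to 3.20 and 6.32 CPM at PND 7 and to 5883 and 6896 CPM at PND 28. PND 14 mouse 1 stood apart from PND 14 mouse 2. It had 219.0 against 26.3 CPM of spermatid markers, above both PND 17 mice (28.4 and 26.4 CPM) and within the range of the PND 21 mice (250.3 and 185.8 CPM), so these markers did not follow the order of ages there. It also had 2063 against 1160 CPM of the 11 Sertoli markers found and 1782 against 2725 CPM of spermatocyte markers. PND 21 mouse 1 had fewer Leydig marker counts than PND 21 mouse 2, with 149.6 against 403.8 CPM over 7 genes.

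Stra8 is shown first with its promoter, since it is the RA target of the set, and Aldh1a2 and Cyp26b1 are shown beside it as genes of enzymes that make and degrade RA, which moved in opposite directions. The sequences are those of RefSeq's GRCm38.p6 table, from 250 bases before to 50 bases after the annotated start, written 5′ to 3′ on the gene's strand, and each was found exactly once in mm9. Capitals mark RA receptor half-sites, taken as the letters AGGTCA, the letters AGTTCA, the letters GGGTCA or the letters GGTTCA on either strand. The Stra8 window was chr6:34870698-34870997 (+ strand, mm9), the Aldh1a2 window chr9:71063346-71063645 (+ strand) and the Cyp26b1 window chr6:84543755-84544054 (- strand).
Stra8: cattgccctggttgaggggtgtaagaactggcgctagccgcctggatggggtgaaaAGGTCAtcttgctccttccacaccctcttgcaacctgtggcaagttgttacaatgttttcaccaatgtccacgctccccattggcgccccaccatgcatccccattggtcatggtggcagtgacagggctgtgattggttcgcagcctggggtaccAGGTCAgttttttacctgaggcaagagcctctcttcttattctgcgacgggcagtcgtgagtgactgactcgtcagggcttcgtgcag
Aldh1a2: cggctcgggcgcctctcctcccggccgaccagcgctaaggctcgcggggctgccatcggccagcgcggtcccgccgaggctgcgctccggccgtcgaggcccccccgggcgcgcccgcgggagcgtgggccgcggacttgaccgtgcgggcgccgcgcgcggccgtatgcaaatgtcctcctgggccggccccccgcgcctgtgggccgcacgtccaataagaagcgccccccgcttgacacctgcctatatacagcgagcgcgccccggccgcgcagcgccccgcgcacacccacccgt
Cyp26b1: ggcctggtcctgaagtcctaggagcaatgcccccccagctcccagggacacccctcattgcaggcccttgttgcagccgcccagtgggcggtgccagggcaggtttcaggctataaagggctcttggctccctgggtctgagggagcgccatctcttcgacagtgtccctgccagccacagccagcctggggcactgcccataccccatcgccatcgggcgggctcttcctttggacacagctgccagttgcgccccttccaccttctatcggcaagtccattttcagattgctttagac

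The Stra8 window held 2 half-sites, both AGGTCA on the sense strand, at -194 to -189 and at -38 to -33 from the RefSeq start. That start lies 785 bases downstream of the start of the gene in the deposited annotation. The windows of Aldh1a2 and Cyp26b1 held none of these letters, and neither did that of Crabp1. All 8 members matched the table, with 16 promoter windows between them. Half-sites were also present in 1 window of Stra6, 1 of Aldh1a1, 1 of Rarg and 2 of Rara, one of which held 4. A half-site is a common string, found in 43.7% of the 32851 promoters of the table. Direct repeats of a half-site with a spacing of 1, 2 or 5 bases, the spacings of RA response elements, were in 0.222%, 0.268% and 0.097% of all promoters and in none of the 16 windows. These are matches of letters only.

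Stra8, the gene stimulated by RA that is required for germ cells to enter meiosis, lies on chromosome 6 (mm9, 34870163 to 34889342, + strand, ENSMUSG00000029848). It was at 69.2 and 67.3 CPM in the mice of PND 7, at 79.0 and 65.3 CPM at PND 14 and at 62.6 and 78.6 CPM at PND 17. It was at 18.6 and 32.5 CPM at PND 21 and at 24.3 and 18.0 CPM at PND 28. The 6 mice up to PND 17 were all above the 4 later mice, and within each of these sets the ages overlapped. Stra8 fell 2.74-fold between PND 17 and PND 21, a log2 fold change of -1.45 (SE 0.29, edgeR adjusted p = 0.0114). It was the only member called in that comparison, where 1.05% of all genes were lower and 9.29% higher at the later age. The call was lost without PND 17 mouse 2 (log2 fold change -1.29, edgeR adjusted p = 0.115) and without PND 21 mouse 1 (-1.11, edgeR adjusted p = 0.0989), with the mice remaining still lower at PND 21. PND 21 mouse 1 is the mouse with the lowest mapping rate and the larger intron share of its age. Between PND 7 and PND 28 the fall of Stra8 was -1.68 (SE 0.29, edgeR adjusted p = 0.000561), and it was called in all 17 alternatives. The mean at PND 28 was 31.0% of the mean at PND 7.

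In whole testis RNA, fewer cells of a type and less RNA per cell cannot be told apart. The 10 spermatogonia markers also had lower sums at the later ages, though not all of them went that way. At PND 17/21 3 of 10 fell and none rose, beside 1.05% of all genes lower and 9.29% higher. Over PND 7/28 7 fell and 1, Id4, rose (log2 fold change 2.71, SE 0.34, edgeR adjusted p = 5.03e-05), beside 23.4% of all genes lower and 32.2% higher. The markers summed to between 382.8 and 527.7 CPM in the 6 mice up to PND 17, to 235.3 and 262.4 CPM at PND 21 and to 168.2 and 214.4 CPM at PND 28. The log2 ratio of Stra8 to this sum was between -2.93 and -2.39 up to PND 17, -3.66 and -3.01 at PND 21 and -2.79 and -3.57 at PND 28. One PND 28 mouse thus lay within the earlier range and the other below it, and the part of the spermatogonial share in the fall of Stra8 was not tested. Of the 10 markers, 1 was at 0 in PND 28 mouse 2 and none in the other mice.

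**Figure D1:**
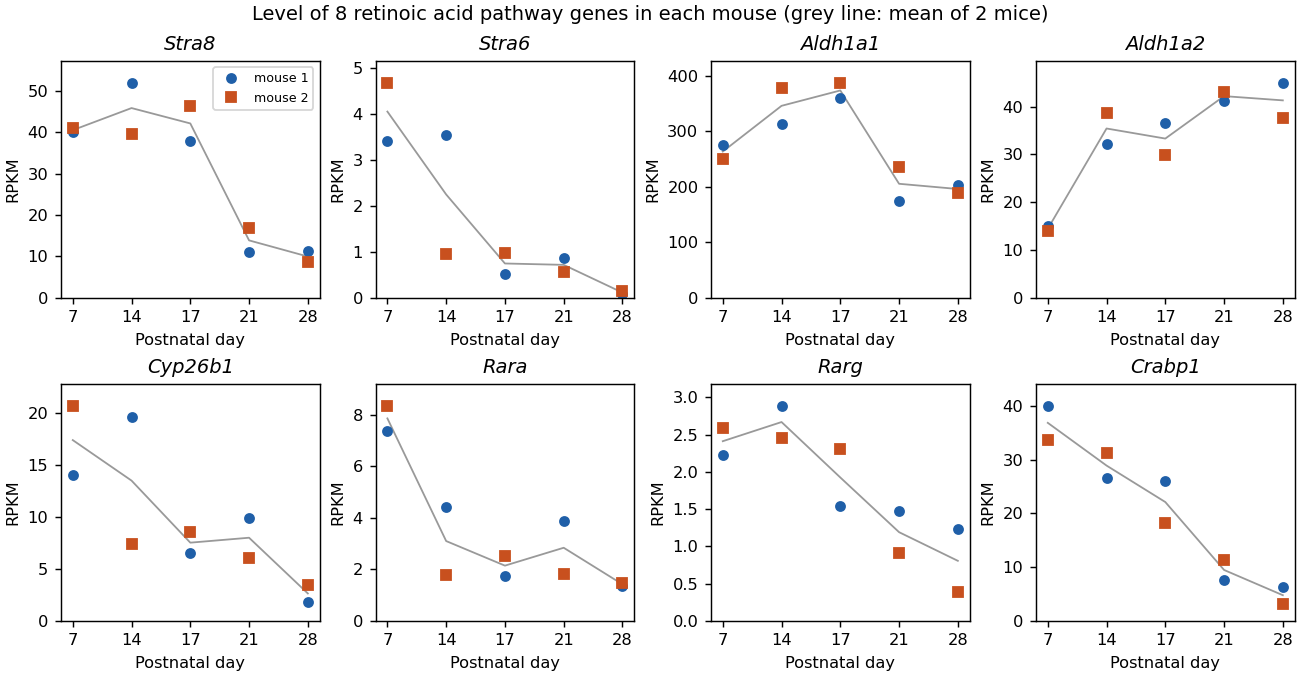
Deposited RPKM (vertical axes, starting at 0) of the 8 genes by postnatal day, with a circle for mouse 1, a square for mouse 2 and a grey line through the mean of the 2 mice. Stra8 sits between 38.0 and 52.1 RPKM up to PND 17 and between 8.55 and 16.8 RPKM after it, and Aldh1a2 is the gene whose PND 7 mice lie below every later mouse.

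Stra6, the retinol uptake receptor, had the widest range of the 8 by fold (chromosome 9, 57911595 to 58001803, + strand, ENSMUSG00000032327). Its level was 18.9 and 25.8 CPM at PND 7, 17.4 and 5.13 CPM at PND 14 and 2.79 and 5.32 CPM at PND 17. It was 4.77 and 3.50 CPM at PND 21 and 0.545 and 0.923 CPM at PND 28, where each mouse had 4 counts. PND 14 mouse 1 was near the PND 7 mice and PND 14 mouse 2 was near the PND 17 mice. Stra6 fell by 4.97 on the log2 scale between PND 7 and PND 28 (SE 0.72, edgeR adjusted p = 0.000156), with a 95% interval of -6.56 to -3.38 that reflects the few counts at PND 28. The call was lost in 1 of 17 alternatives, criteria that require a difference of 10 RPKM. The size depends on the scale, with -2.18 on log2(RPKM + 1), -4.31 on log2(RPKM + 0.1) and between -5.29 and -4.56 in the alternatives fitted to counts. No neighbouring pair of ages was called. PND 21/28 came to -2.53 (SE 0.77, edgeR adjusted p = 0.0729), and DESeq2 called that step. The deposited Stra6 model starts 65300 bases before the first RefSeq start and spans part of Ccdc33 on the other strand and of Gm16131, though it shares 0 exon bases with either, and whether strand was used in counting is not given in the sources used here.

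The 11 Sertoli markers, genes of the cells that nurse the germ cells, summed to 2296 and 1935 CPM at PND 7 and to 536.4 and 718.2 CPM at PND 28, none at 0 in any mouse. Of these, 9 fell between PND 7 and PND 28, among them Fshr and Wt1, and none rose, beside 23.4% and 32.2% of all genes. The log2 ratio of Stra6 to the Sertoli sum was -6.92 and -6.23 at PND 7 and -9.94 and -9.60 at PND 28, so Stra6 was also lower relative to these markers. For Cyp26b1 the ratio was -5.20 and -4.47 at PND 7 and -5.79 and -5.26 at PND 28, and for Rara it was -6.17 and -5.81 at PND 7 and -6.19 and -6.52 at PND 28. The PND 7 and PND 28 mice lay closer in these 2 ratios than in that of Stra6. Between these ages the ratio of Rara did not stay level. It was -6.92 and -7.30 at PND 14 and -7.29 and -7.17 at PND 17, below all PND 7 and PND 28 mice. At PND 21 it was -5.99 and -6.86. The part of the Sertoli share in these falls was not tested.

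Aldh1a1, which oxidizes retinal to RA and is known in the testis from Sertoli and Leydig cells, was by far the most abundant of the 8 per exon length (chromosome 19, 20676451 to 20717952, + strand, ENSMUSG00000053279). Its mean was 263.7 RPKM ± 17.8 (SD, n = 2) at PND 7, 373.9 ± 20.1 at PND 17 and 196.0 ± 11.2 at PND 28, which gave it rank 27, rank 20 and rank 182 among 22380 protein coding genes. On the CPM scale, the PND 7 mice were at 538.6 and 475.8, the PND 14 mice at 541.9 and 710.7, the PND 17 mice at 676.4 and 750.1, the PND 21 mice at 339.1 and 521.4 and the PND 28 mice at 497.1 and 451.4. The PND 7 and PND 28 mice overlapped, and both PND 17 mice were above all PND 7, PND 21 and PND 28 mice. No pair of ages was called. PND 17/21 gave a log2 fold change of -0.73 (SE 0.26, edgeR adjusted p = 0.0948), which was called when PND 21 mouse 2 was left out. PND 7/28 gave -0.10 with a 95% interval of -0.67 to 0.48 (edgeR adjusted p = 0.762). The log2 ratio of Aldh1a1 to the Sertoli sum was -2.09 and -2.02 at PND 7 and -0.11 and -0.67 at PND 28. The 7 Leydig markers summed to 324.4 and 327.6 CPM at PND 7 and to 1135 and 881.1 CPM at PND 28. Not all of them rose, since 3 were called higher and 1 lower over PND 7/28, beside 32.2% and 23.4% of all genes. The part of either cell type in the level of Aldh1a1 was not tested. Some reads of Aldh1a1 cannot be told from those of its close copy Aldh1a7, since 7.53% of the 2004 windows of 50 bases in the Aldh1a1 transcript also occur in Aldh1a7 and 30.9% do so within 2 mismatches, and only unique reads were counted.

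Aldh1a2, the related enzyme with a known role in germ cells past the spermatogonial stage, was the only member that rose (chromosome 9, 71063596 to 71144050, + strand, ENSMUSG00000013584). It was at 32.1 and 29.4 CPM at PND 7, at 61.4 and 79.9 CPM at PND 14 and at 76.0 and 63.9 CPM at PND 17. It was at 88.3 and 105.1 CPM at PND 21 and at 121.0 and 99.5 CPM at PND 28. Both PND 7 mice were below all 8 later mice. The rise between PND 7 and PND 14 was 1.20 on the log2 scale (SE 0.23, edgeR adjusted p = 0.00459). Without PND 14 mouse 2 it was 0.98, just under the required fold, with an edgeR adjusted p = 0.0346. Between PND 7 and PND 28 the rise was 1.84 (SE 0.23, edgeR adjusted p = 6.04e-05), called in all 17 alternatives. From PND 14 onward no neighbouring step was called, and PND 14/28 gave a 1.56-fold difference (edgeR adjusted p = 0.0382), under the fold of 2. All 8 spermatocyte markers, Sycp3 and Sycp1 among them, were also called higher at PND 14 than at PND 7, beside 13.5% of all genes. So were 7 of the 8 spermatid markers, whose sum was far higher in PND 14 mouse 1 than in mouse 2. The part of the arriving germ cells in the rise of Aldh1a2 was not tested.

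Within a mouse, the RPKM of Aldh1a1 was 18.5 and 18.1 times that of Aldh1a2 at PND 7, 9.73 and 9.81 times at PND 14 and 9.81 and 13.0 times at PND 17. It was 4.24 and 5.47 times at PND 21 and 4.53 and 5.01 times at PND 28. The ratios at PND 7, at PND 14 and 17 together and at PND 21 and 28 together did not overlap, and Aldh1a1 remained the more abundant of the pair in every mouse. A ratio within a library does not depend on its scaling, and it was not tested.

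**Figure D2:**
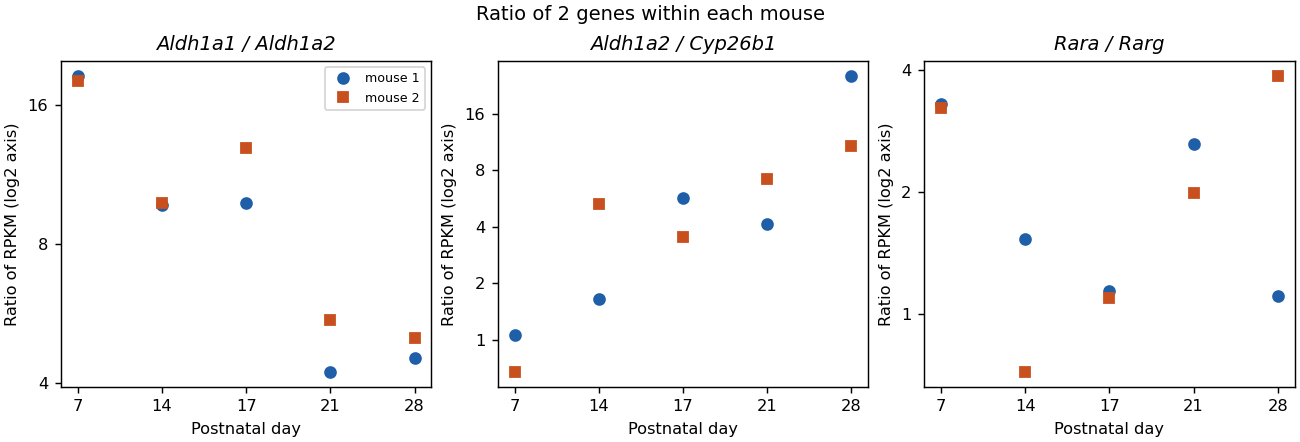
Ratio of the RPKM of 2 genes within each mouse (vertical log2 axes) by postnatal day, with a circle for mouse 1 and a square for mouse 2. Aldh1a1 to Aldh1a2 goes from 18.5 and 18.1 at PND 7 to 4.53 and 5.01 at PND 28, Aldh1a2 to Cyp26b1 from 1.06 and 0.672 to 25.4 and 10.8, and Rara to Rarg shows no such order, with 1.11 and 3.87 at PND 28.

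Cyp26b1, an RA-degrading enzyme known from somatic cells of the testis, went the other way (chromosome 6, 84521938 to 84543740, - strand, ENSMUSG00000063415). Its values were 62.4 and 87.6 CPM at PND 7, 76.0 and 30.9 CPM at PND 14 and 27.3 and 37.0 CPM at PND 17. They were 43.2 and 29.9 CPM at PND 21 and 9.68 and 18.7 CPM at PND 28. Much as for Stra6, PND 14 mouse 1 lay in the range of PND 7 and PND 14 mouse 2 in that of PND 17, and both PND 28 mice were below every other mouse. Cyp26b1 fell by 2.42 on the log2 scale between PND 7 and PND 28 (SE 0.46, edgeR adjusted p = 0.000959), in all 17 alternatives. No neighbouring step was called, and PND 21/28 came to -1.38 (SE 0.46, edgeR adjusted p = 0.0932). The ratio of Aldh1a2 to Cyp26b1 in RPKM was 1.06 and 0.672 at PND 7, 1.64 and 5.26 at PND 14, 5.67 and 3.51 at PND 17, 4.15 and 7.15 at PND 21 and 25.4 and 10.8 at PND 28. Aldh1a2 and Cyp26b1 were thus at similar levels per length at PND 7, and at PND 28 Aldh1a2 was over 10 times higher in both mice. With Aldh1a1 added to Aldh1a2, the ratio to Cyp26b1 was already 20.7 and 12.8 at PND 7, and it was 140.7 and 64.9 at PND 28. The 5 peritubular myoid markers, another source of RA-degrading enzymes, summed to 413.5 and 517.4 CPM at PND 7 and to 144.5 and 189.9 CPM at PND 28, and their part in the fall of Cyp26b1 was not tested.

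Crabp1, which binds RA in the cytosol and is known from early spermatogonia, had a lower mean at each later age (chromosome 9, 54612555 to 54620917, + strand, ENSMUSG00000032291). It was at 30.8 and 24.7 CPM at PND 7, at 17.9 and 22.9 CPM at PND 14 and at 19.0 and 13.8 CPM at PND 17. It was at 5.73 and 9.79 CPM at PND 21 and at 6.0 and 3.0 CPM at PND 28. The 6 mice up to PND 17 were all above the 4 later ones, as for Stra8. Crabp1 fell by 2.58 on the log2 scale between PND 7 and PND 28 (SE 0.41, edgeR adjusted p = 0.000295), in all 17 alternatives, and its mean at PND 28 was 16.2% of that at PND 7. PND 17/21 gave -1.08 (SE 0.40) and missed the threshold (edgeR adjusted p = 0.101). Its log2 ratio to the spermatogonia sum was -4.10 and -4.19 at PND 7 and -4.81 and -6.16 at PND 28, where the second mouse had 13 counts.

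Rara, the RA receptor that is needed in both Sertoli and germ cells, was highest at PND 7 (chromosome 11, 98789132 to 98836256, + strand, ENSMUSG00000037992). It was at 31.9 and 34.5 CPM at PND 7, at 17.1 and 7.36 CPM at PND 14 and at 7.32 and 10.9 CPM at PND 17. It was at 16.7 and 8.92 CPM at PND 21 and at 7.36 and 7.85 CPM at PND 28. Both PND 7 mice were above every later mouse, and the later ages overlapped except that both PND 28 mice were below both PND 21 mice. Among the later mice the highest were PND 14 mouse 1 and PND 21 mouse 1. They and the PND 7 mice had the larger intron share, and its part in the fall of Rara was not tested. Rara fell by 1.44 on the log2 scale between PND 7 and PND 14 (SE 0.43, edgeR adjusted p = 0.0351). Leaving out PND 7 mouse 1 (edgeR adjusted p = 0.0532), PND 7 mouse 2 (0.104) or PND 14 mouse 2 (0.19) lost that call, and it held in 9 of 17 alternatives. Between PND 7 and PND 28 Rara fell by 2.13 (SE 0.45, edgeR adjusted p = 0.00183). It held in 16 of 17 alternatives there, the exception being criteria that require a difference of 10 RPKM, which Rara never reached.

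Rarg, the receptor known from spermatogonia, was the least abundant member at PND 7 (chromosome 15, 102065369 to 102087948, - strand, ENSMUSG00000001288). The mice were at 8.81 and 10.2 CPM at PND 7, at 10.0 and 9.20 CPM by PND 14 and at 5.79 and 8.95 CPM by PND 17. They were at 5.73 and 4.02 CPM in the PND 21 pair and at 6.0 and 1.85 CPM in the PND 28 pair. Both PND 28 mice were below both PND 7 mice, and the mice of PND 28 differed from each other by more than those of PND 7. PND 7/28 gave a log2 fold change of -1.21 (SE 0.51, 95% interval -2.34 to -0.09, edgeR adjusted p = 0.057), and Rarg was not called in any pair of ages in the fit of all 10 mice. At PND 7/28 it was called lower in 5 of 17 alternatives, namely library totals, no filter on low counts, small structural and mitochondrial RNAs left out, limma on log2(RPKM + 0.1) and PND 28 mouse 1 left out. Its counts were between 8 and 91 per mouse. Rara was 3.30 and 3.22 times Rarg in RPKM at PND 7 and between 0.718 and 3.87 times later, with no order by age.

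**Figure D3:**
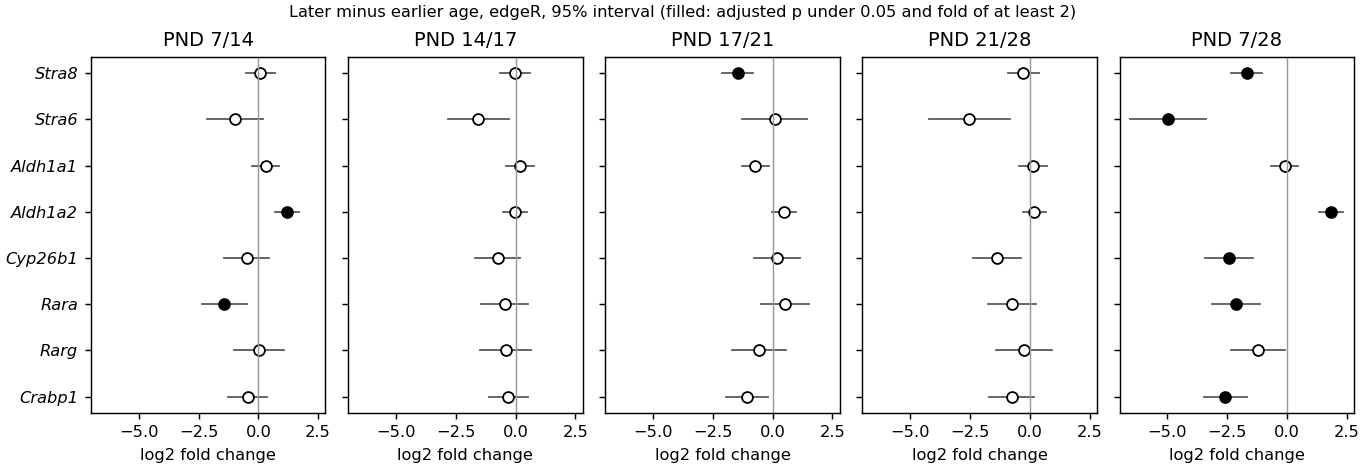
Log2 fold change of the 8 genes (horizontal axes, later minus earlier age) in the 4 steps between neighbouring ages and over the whole span from PND 7 to PND 28, with 95% intervals from edgeR, a filled point marking a called difference. There are 2 filled points for PND 7/14, none for PND 14/17 or PND 21/28, 1 for PND 17/21 and 6 for PND 7/28.

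Read against all genes, the counts of members were as follows. At PND 7/14, 1 of 8 members was higher and 1 lower, beside 13.5% of all genes higher and 5.43% lower. Without PND 14 mouse 1, which stood apart, 3 members were called (Stra6, Aldh1a2 and Rara), and without PND 14 mouse 2 there were 0. At PND 14/17 no member was called, with 0% of all genes higher and 0% lower by edgeR. At an unadjusted edgeR p under 0.05 there were 769 genes, 4.56% of those tested, and 1 member of 8, Stra6. DESeq2 called 1 gene and no member. At PND 21/28 no member was called by edgeR, beside 7.37% of all genes higher and 0.297% lower. Stra6 and Cyp26b1, 2 of 8 members, had an unadjusted edgeR p under 0.05 there, as did 4021 genes in all, 23.8% of those tested. DESeq2 called Stra6. Over PND 7/28, 1 member was higher and 5 were lower, beside 32.2% of all genes higher and 23.4% lower. The median log2 fold change of the members was -1.91 in that comparison and that of all genes 0.10.

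In the other pairs of ages, PND 7/17 had 3 members called beside 25.8% of all genes, PND 7/21 had 5 beside 42.6% and PND 14/21 had 2 beside 14%. PND 14/28 had 4 beside 37.7% and PND 17/28 had 3 beside 32.1%. These share mice with the comparisons above. Stra8 was called in the 6 pairs that set PND 21 or 28 against PND 7, 14 or 17, though PND 14/21 was lost without PND 21 mouse 1 (edgeR adjusted p = 0.0627). Aldh1a2 was called in each of the 4 pairs that hold PND 7, and so was Rara, while Stra6 was called in 3 of those 4. In PND 7/17 both Stra6 and Rara lost the call without PND 17 mouse 1 (edgeR adjusted p = 0.112 and 0.114). In PND 7/21 both lost it without PND 21 mouse 2 (edgeR adjusted p = 0.0537 and 0.161), and Rara also without PND 7 mouse 2 (0.0599). Over the 5 ages together 6 members passed an adjusted p of 0.05, as did 57.5% of all genes, and the exceptions were again Aldh1a1 (0.127) and Rarg (0.158).

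The order of the members by RPKM was not the same at every age. Aldh1a1 was first at every age. Stra8 followed at 40.6 ± 0.679 RPKM (SD, n = 2) at PND 7, 45.9 ± 8.72 at PND 14 and 42.2 ± 5.95 at PND 17, with Crabp1 after it at PND 7 (36.8 ± 4.52). Aldh1a2 held rank 5 of the 8 at PND 7 (14.4 ± 0.728), rank 3 at PND 14 (35.4 ± 4.58) and rank 2 at PND 21 (42.2 ± 1.35) and PND 28 (41.3 ± 5.27). Stra8 held rank 3 at PND 21 (13.9 ± 4.14) and PND 28 (9.95 ± 1.98). Rarg and Stra6 shared the last places, with 0.805 ± 0.601 and 0.11 ± 0.042 RPKM at PND 28.

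**Figure D4:**
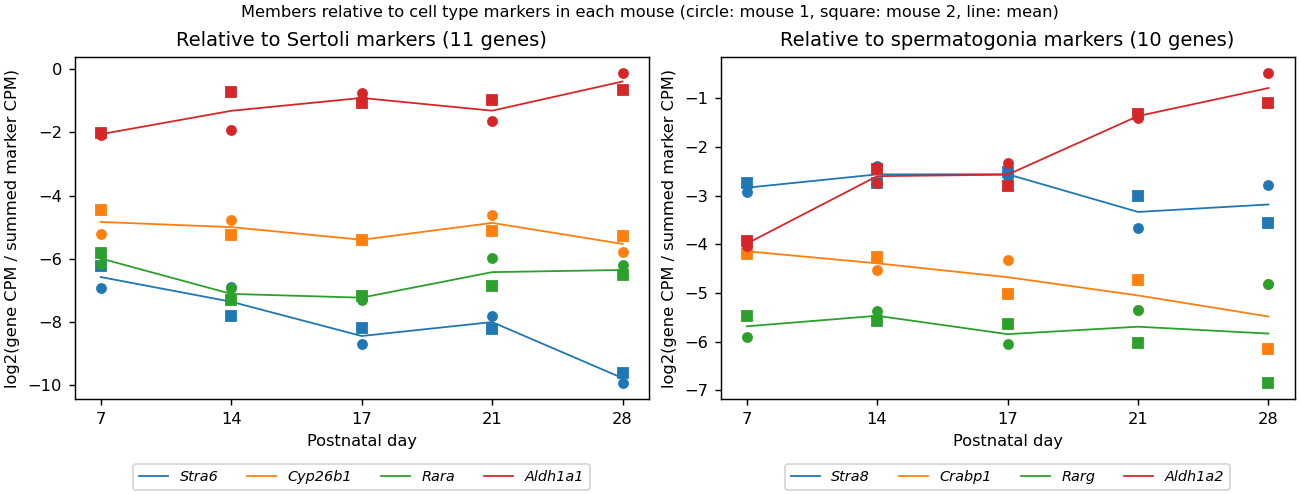
Log2 ratio of a gene's CPM to the summed CPM of 11 Sertoli markers (left) and of 10 spermatogonia markers (right) by postnatal day, with a circle for mouse 1, a square for mouse 2 and a line through the mean. On the left Stra6 goes from -6.92 and -6.23 to -9.94 and -9.60 while Cyp26b1 stays between -5.79 and -4.47. On the right Aldh1a2 goes from -4.04 and -3.94 to -0.48 and -1.11.

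Beyond the 8 members, 43 other genes of uptake, storage, oxidation, degradation and receptors of retinoids were found in the files, and 29 of them passed the filter. At PND 7/28, 8 of the 29 were higher and 9 lower, beside 32.2% and 23.4% of all genes, with a median log2 fold change of -0.46 beside 0.10 for all genes. At PND 7/14 there were 4 higher and 4 lower, beside 13.5% and 5.43% of all genes, and at PND 14/17 none by edgeR. PND 17/21 had 1 higher and 2 lower, beside 9.29% and 1.05%, and PND 21/28 had 2 higher and none lower, beside 7.37% and 0.297%. The 14 genes that did not pass included Rarb and Rxrg, receptors of RA and of its partner family, Crabp2, and Cyp26c1, which was at 0 in every mouse from PND 17 onward.

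Among storage genes, Lrat, which esterifies retinol, was at 1.60 and 0 CPM at PND 7, at 7.70 and 14.3 CPM at PND 14 and at 22.8 and 18.9 CPM at PND 28. It rose by 4.55 on the log2 scale between PND 7 and PND 28 (SE 0.77, edgeR adjusted p = 0.000454), with no overlap between the 2 ages. Dgat1, an acyltransferase that can also esterify retinol, rose by 1.92 over the same span (SE 0.29, edgeR adjusted p = 0.000187). Bcmo1, which cleaves β-carotene to retinal, had 0 counts in both PND 7 mice, which allows up to 0.300 and 0.403 CPM, and it was at 19.1 and 24.7 CPM at PND 28 after 1.19 and 1.75 CPM at PND 21.

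Of the 13 retinol and retinal dehydrogenases and reductases tested, 4 rose and 3 fell over PND 7/28, shares near the 32.2% and 23.4% of all genes. Rdh11, a reductase that turns retinal back into retinol, was at 10.8 and 23.4 CPM at PND 7, 65.8 and 134.5 CPM at PND 14, 202.7 and 109.1 CPM at PND 17, 354.8 and 358.9 CPM at PND 21 and 573.9 and 469.4 CPM at PND 28. It rose by 4.94 on the log2 scale from PND 7 to PND 28 (SE 0.49, edgeR adjusted p = 1.15e-05) and made up most of the counts of this list at PND 28. Rdh10, which oxidizes retinol to retinal, the step before the ALDH1A enzymes, was at 28.4 and 28.1 CPM at PND 7 and 23.1 and 20.6 CPM at PND 17, then at 6.92 and 9.79 CPM at PND 21 and 20.04 and 21.2 CPM at PND 28. Both PND 21 mice were below every other mouse. Rdh10 fell by 1.38 at PND 17/21 (SE 0.28, edgeR adjusted p = 0.0118) and rose by 1.29 at PND 21/28 (SE 0.28, edgeR adjusted p = 0.0174), and the comparisons share the PND 21 mice.

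Cyp26a1, the other RA-degrading enzyme that passed the filter, was low throughout. It was at 3.8 and 5.64 CPM at PND 7 and 4.32 and 4.84 CPM at PND 17, then at 0.477 and 0.699 CPM at PND 21 and 1.64 and 1.62 CPM at PND 28. It fell between PND 17 and PND 21 (edgeR adjusted p = 0.0147), on few counts at PND 21, the same step at which Stra8 fell. Aldh1a7, the close copy of Aldh1a1, rose by 1.78 over PND 7/28 (SE 0.42, edgeR adjusted p = 0.00357), from 13.6 and 7.79 CPM to 45.5 and 27.9 CPM, and the windows it shares with Aldh1a1 make its counts uncertain. Aldh1a3, the remaining retinaldehyde dehydrogenase of the family tested, was between 5.73 and 21.1 CPM and was not called in any neighbouring step.

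Among the 5 other receptors and corepressors tested, 3 fell over PND 7/28 and none rose, beside 23.4% and 32.2% of all genes. Among them were the corepressors Ncor1 and Nrip1, with log2 fold changes of -1.10 (SE 0.35, edgeR adjusted p = 0.0167) and -2.75 (SE 0.40, edgeR adjusted p = 0.000169). The retinoid X receptors Rxra and Rxrb, the partners of the RA receptors, were not called in that comparison. Rxra missed only the fold of 2, with a log2 fold change of -0.709 (SE 0.255, edgeR adjusted p = 0.031). For Rxrb it was -0.184 (SE 0.25, edgeR adjusted p = 0.541). Rxra was at 40.5 and 40.0 CPM at PND 7 and at 24.8 and 24.5 CPM at PND 28, and Rxrb at 29.8 and 31.2 CPM and at 30.8 and 22.6 CPM. As with Rara, Ncor1 was higher in PND 14 mouse 1 (105.2 CPM) than in mouse 2 (72.2 CPM) and higher in PND 21 mouse 1 (155.6 CPM) than in mouse 2 (77.8 CPM). At both ages mouse 1 also had a larger intron share than mouse 2, and its part in these levels was not tested.

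A list of 8 germ cell genes known to respond to RA or to act beside Stra8 was tested in full. None was called at PND 7/14, none at PND 14/17 and none at PND 21/28 by edgeR. At PND 17/21, the step at which Stra8 fell, 3 of 8 fell, namely Sohlh2, Sall4 and Dmrt1, transcription factors of spermatogonia, and none rose, beside 1.05% of all genes lower and 9.29% higher. Over PND 7/28, 5 fell and 1 rose, beside 23.4% of all genes lower and 32.2% higher, with a median log2 fold change of -1.61 beside 0.10 for all genes. Gm4969, which encodes the meiosis initiator MEIOSIN that works with STRA8, was at 43.5 and 42.7 CPM at PND 7, 49.3 and 27.6 CPM at PND 14, 27.8 and 28.8 CPM at PND 17, 14.1 and 17.1 CPM at PND 21 and 9.0 and 13.4 CPM at PND 28, and fell by 1.96 over the span (SE 0.33, edgeR adjusted p = 0.000432). Rec8, a meiotic cohesin, went the other way, from 20.6 and 9.54 CPM at PND 7 to 70.1 and 57.0 CPM at PND 28, and rose by 2.07 (SE 0.40, edgeR adjusted p = 0.000989). Kit, Sohlh1, Sall4 and Dmrt1, all among the genes that fell over PND 7/28, are also on the list of spermatogonia markers, so the 2 lists are not independent.

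**Figure D5:**
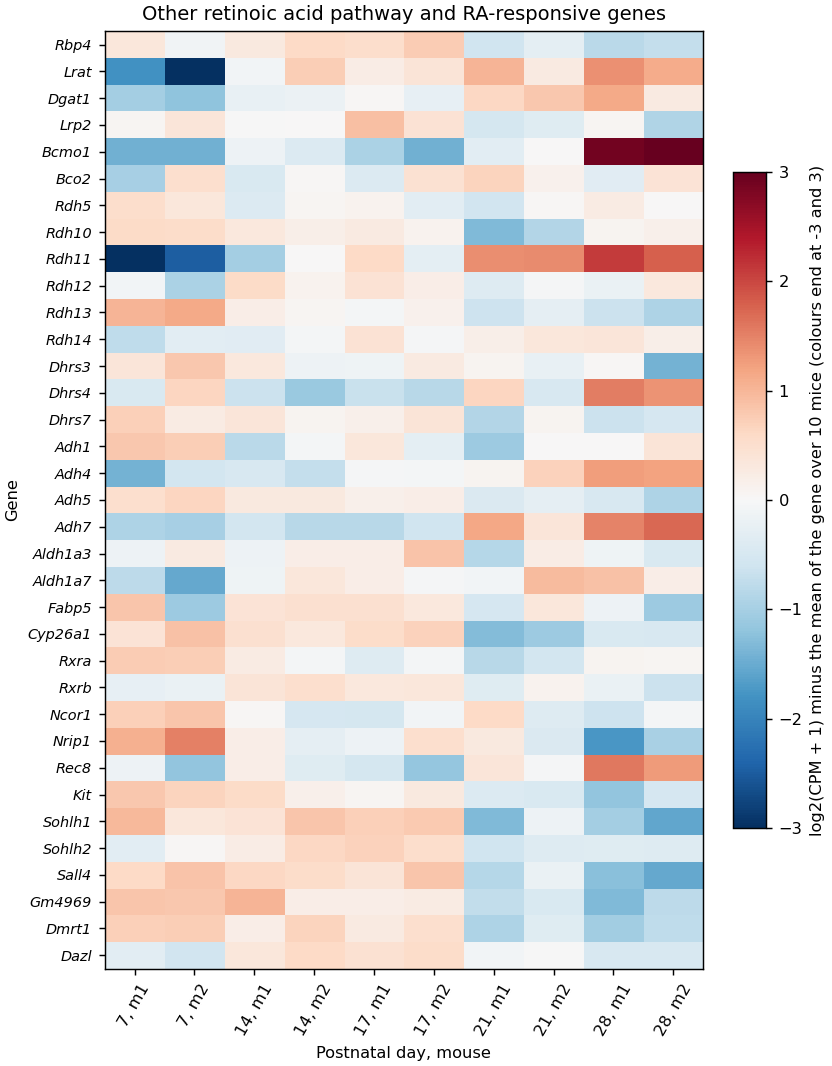
Rows are other retinoid and RA-responsive germ cell genes that passed the filter, columns the 10 mice by postnatal day, and the colour is log2(CPM + 1) minus the mean of the gene over the mice, from blue (lower) to red (higher). Rdh11 and Bcmo1 run from blue at PND 7 to red at PND 28, while Nrip1 and Sall4 run from red to blue.

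The genes whose levels over the 10 mice were most like those of a member, by Pearson's r of log2(CPM + 1) among the 10358 genes tested whose mean was 10 CPM or more, were as follows. These r values are descriptive, since all points share libraries and ages. For Stra8 they were Fbxo10 (r = 0.990) and Mdh2. Stra6 was closest to Lama1, a laminin chain (r = 0.992), Rap1gds1 and Fasn, and Cyp26b1 to Gpc4, a glypican (r = 0.991), Ndrg1 and Mov10. Aldh1a1 was closest to Itm2c (r = 0.977), Igfbp7 and Mdh1, and Aldh1a2 to Zbtb3 (r = 0.995), Mapk8ip2 and Gatad1. For Rara they were Slc20a1 (r = 0.986), BC031353 and Ikbkb, for Rarg Atad3a (r = 0.948), Fam173b and Pdss2, and for Crabp1 Pot1a (r = 0.995), Gcdh and Jkamp. Zbtb3 went from a mean of 3.8 CPM at PND 7 to 90.1 CPM at PND 28, a far wider range than the 30.8 to 110.3 CPM of Aldh1a2, since r reads the order and spacing of ages and not the size of the change.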

How the data were processed

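RNA of whole testes from 10 mice was measured in 12 libraries, as each PND 7 mouse had 2 barcodes. The authors aligned SOLiD 4 reads of 50 bases to mm9 with LifeScope, counted unique reads on the exons of Ensembl genes and deposited raw counts with RPKM values, which divide the count by exon length and counted reads. The deposited number of exons with more than 10 reads, also a count, was looked at for the members. Strand use in counting is not given in the sources used here. The 37310 genes found in GENCODE M1 had the same mm9 coordinates there, and 365 genes, with 0 counts, were not found.

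The counts of the barcodes of a mouse were summed and their RPKM values averaged. Counts were tested with edgeR 4.0.16 in R 4.3.3 (TMM, filterByExpr, quasi-likelihood, 5 ages in 1 fit, Benjamini-Hochberg over 16860 genes). SE is the log2 fold change divided by the root of F. Permuting 2 mice against 2 cannot give a p under 0.05 for a gene alone, so calls rest on the spread shared across genes. Alternatives used DESeq2 1.42.0, limma 3.58.1 on log2(RPKM + pseudocount), other scalings and filters, and left out mice. The script was run on simulated counts with the same spread for every gene, which checks the code and not the calls made here. The 95% intervals of fold changes come from this fit and include the spread between mice, while count floors cover counting error only.

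The members, the lists and the named genes (members, called genes of the lists, at most 10 a comparison, and up to 3 genes most like each member) were chosen with earlier results of these data known. Retinoid genes are named by this rule, and Rarb, Rxrg, Crabp2, Cyp26c1, Aldh1a3, Rxra and Rxrb were added after their values were seen. The symbols Stra6l, Bco1, Rhox5, Adgre1 and Meiob of the lists had no match. Some genes that these rules name are not reported here, though the counts of the lists include them. Same-numbered mice of different ages are different animals, and the correlations of their deviations ran from -0.253 to 0.398.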

Additional observations from a re-analysis of the deposited data

How the results depend on the processing

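No called fold change of a member changed direction under the alternatives run. The 6 calls of PND 7/28 stayed between 4 and 7 in number, and of 221 refitted member fold changes 191 kept their side of the threshold and 30 lost the call. For PND 7/14, with 2 calls, 1 was left (Aldh1a2) under library totals, with only the 4 mice of the comparison and under each of the 3 limma settings, and leaving out 1 mouse gave 0 to 3. For PND 17/21, with 1 call, no filter on low counts and limma with the study's criteria gave 2 (Stra8 and Crabp1), limma on log2(RPKM + 0.1) gave 0, leaving out 1 mouse gave 0 to 2, and leaving out PND 14 mouse 1 with PND 21 mouse 1, an alternative chosen after seeing the data, gave 0. For PND 21/28, with 0 calls, DESeq2 gave 1 (Stra6), and no filter or only the 4 mice gave 2 (Stra6 and Cyp26b1). The cause was not tested. Under the study's criteria Stra6 and Rara left the PND 7/28 calls because their levels never differ by 10 RPKM. Mouse number as a replicate block gave 2, 0, 1, 0 and 6 calls, as without it, and the numbers do not pair the animals. Library totals in place of TMM moved the median log2 fold change of all genes at PND 7/28 from 0.103 to -0.22. Without a filter, 357 genes were called at PND 14/17. Leaving out each mouse in the other 5 pairs of ages, added after seeing the data, lost Crabp1 at PND 14/21 in 3 of 4 cases, Stra6 at PND 17/28 in 3 of 4, Cyp26b1 at PND 14/28 in 2 of 4 and Crabp1 at PND 17/28 in 1 of 4, without PND 17 mouse 1. Of the 3 genes most like a member, 0 to 3 stayed under Spearman's rho or log2(RPKM + 1). The other retinoid genes were fitted in the main setting only. Depth limits Stra6 at PND 28 (4 counts a mouse), Rarg (8 to 91) and Cyp26a1.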
